A study of Mus musculus with 15 samples.

Results

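The genes described here are the 10 listed neighbours of Erbb2 on mouse chromosome 11, in chromosomal order Fbxl20, Med1, Cdk12, Neurod2, Stard3, Tcap, Pgap3, Mien1, Grb7 and Ikzf3. Erbb2 itself lies between Pgap3 and Mien1 and is used only for comparison. The 10 genes are part of 22180 genes with a transcript cluster that names 1 gene on the array, and each of the 10 has exactly 1 such cluster. They were chosen because they surround Erbb2 and because earlier results on the same tumors showed large differences there. Their levels across tumors are therefore given as a description, with no test. Differences between genotypes were tested among all genes. Because of how the 10 genes were chosen, their p-values, intervals and counts support nothing by themselves.

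Expression was measured with Affymetrix whole-transcript arrays in 15 mammary tumors of ErbB2KI mice, 1 array per tumor. Beta-catenin is encoded by Ctnnb1, which was targeted for deletion in the mammary epithelium, and tumors were flash frozen at end burden. The groups are Ctnnb1 wt/wt (WT), Ctnnb1 fl/wt (HET) and Ctnnb1 fl/fl (HOM), with 5 tumors each, and all 15 carry the ErbB2KI background. The sources used here do not give the tumors' age, the Cre driver, or whether each tumor is from its own mouse. All p-values therefore measure the spread between these tumors, which may be partly technical. As general background on the model, an activated form of the receptor is expressed from the Erbb2 promoter after Cre recombination. How the array's probes match that transcript is not known here.

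Erbb2 encodes a receptor tyrosine kinase of the epidermal growth factor receptor family. In human breast cancer of the HER2-positive type the gene is amplified together with a variable stretch of its neighbours, and STARD3, PGAP3, MIEN1 and GRB7 are the usual companions. Genes in such a stretch share extra copies, but only those that the cell transcribes are seen to differ in an RNA measurement. DNA copy number was not measured in these tumors. In whole tumors, fewer cells of a type and less RNA per cell cannot be told apart.

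The labels were checked first with Ctnnb1. Its log2 value was 11.21 in the tumor labelled WT 5 and 11.71 to 12.10 in the other WT tumors. It was 12.01 in the tumor labelled HOM 5 and 11.15 to 11.58 in the other HOM tumors, so these 2 tumors go against their labels. Where the probes lie relative to the deleted part is not known here. Array medians lay between 5.54 and 5.73, the highest belonging to HOM 5. The labelled tissue, mammary tumor, was checked with 9 epithelial markers, whose mean was 10.25 to 11.54 in 14 tumors and 8.33 in HET 1. HET 1 also had the highest mean of 7 B and plasma cell markers, and HET 3 the highest of 10 skeletal muscle markers, with values beside the genes they touch.

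The arrays do not allow the level of one gene to be set against that of another. Each gene was therefore set against its own low tumors, and a value was called high when it lay at least 1 (log2, a 2-fold difference) above the mean of that gene's 5 lowest tumors. Of the 150 values of the 10 genes, 42 were high (28.0%), where 11.2% of all values of the 14243 tested genes were high. For 3 listed genes next to each other, Erbb2 and unlisted genes skipped, all 3 were high in 12 of 120 cases (10%). This compares with 0.625% for all trios of neighbouring tested genes. In those trios no tested gene was skipped, so the 2 shares were not counted alike. The genes were listed for this pattern, so these shares support nothing by themselves. The SD over the 15 tumors was at least 1 for 6 of the 10 genes, where this held for 6.88% of all tested genes. Without the tumors labelled WT 5 and HOM 5 there were 32 high values.

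**Figure D1:**
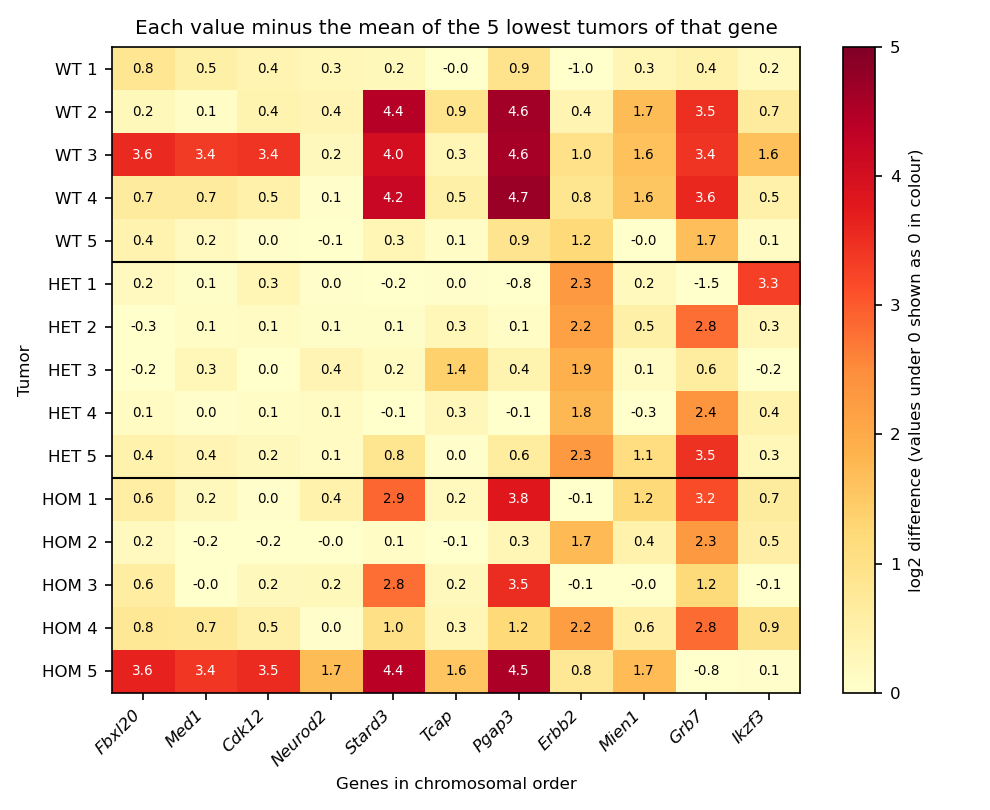
Each cell gives a tumor's log2 value minus the mean of the 5 lowest tumors of that gene; columns are the 10 listed genes and Erbb2 in chromosomal order, rows are the tumors grouped by genotype. WT 3 and HOM 5 are high from Fbxl20 to Cdk12 (3.35 to 3.64), while WT 2, WT 4, HOM 1 and HOM 3 are high only from Stard3 onwards among these genes.

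Pgap3 lies directly beside Erbb2 on its centromeric side, and Stard3 lies beyond Tcap and Pnmt. Together with Grb7 they had the largest SDs among the listed genes over the 15 tumors. STARD3 protein moves cholesterol at the surface of late endosomes. PGAP3 remodels the lipid tail of glycosylphosphatidylinositol-anchored proteins. Stard3 (transcript cluster 17255963) was 8.39, 12.57, 12.15, 12.34 and 8.46 in WT 1 to WT 5. It was 7.93, 8.21, 8.31, 8.04 and 9.0 in HET 1 to HET 5. In HOM 1 to HOM 5 it was 11.03, 8.23, 10.95, 9.15 and 12.53. Thus 3 WT and 3 HOM tumors lay at 10.95 or above, and no other tumor exceeded 9.15.

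Pgap3 (transcript cluster 17268794) was 8.77, 12.48, 12.45, 12.57 and 8.74 in the WT tumors. It was 7.07, 7.94, 8.26, 7.78 and 8.49 in the HET tumors and 11.64, 8.19, 11.37, 9.08 and 12.37 in the HOM tumors. The same 6 tumors that were highest for Stard3 were highest for Pgap3, namely WT 2, WT 3, WT 4, HOM 1, HOM 3 and HOM 5. HOM 4 lay just past the threshold for both genes, 1.01 above the reference for Stard3 and 1.23 for Pgap3. WT 1 (0.92) and WT 5 (0.89) fell just short of it for Pgap3, as did HET 5 (0.85) for Stard3.

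Over the 15 tumors, Stard3 was the gene most like Pgap3 among 14242 others. The root mean square distance between their median-centred profiles was 0.44 (log2), where the median gene was at 2.26. The next were Cdhr4 (1.40, on chromosome 9), S100b (1.48, chromosome 10), Wnk4 (1.54, chromosome 11) and Flvcr2 (1.56, chromosome 12). Wnk4 lies 119 named genes beyond Erbb2. Both genes share their place beside Erbb2, and all points share the same 15 arrays.

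Stard3 and Pgap3 were high in the same 7 tumors, while Erbb2, directly beside Pgap3, was high in only 1 of these, HOM 4. Erbb2 fell just short in WT 3 (0.98), WT 4 (0.85) and HOM 5 (0.77), but not in WT 2 (0.38), HOM 1 (-0.10) and HOM 3 (-0.06). Its reference is the mean of WT 1, WT 2, HOM 1, HOM 3 and HOM 5, mostly tumors high for Pgap3, which limits this count. The promoters of Stard3, Pgap3 and Erbb2 are shown because of this contrast. Each runs from 250 bases before to 50 after the start (RefSeq, GRCm38.p6), and capitals mark the GC box GGGCGG on either strand, a motif of Sp1-type factors. Of the 10 listed genes, 7 had a promoter in the RefSeq table.
Stard3, chr11:98358118-98358417, plus strand: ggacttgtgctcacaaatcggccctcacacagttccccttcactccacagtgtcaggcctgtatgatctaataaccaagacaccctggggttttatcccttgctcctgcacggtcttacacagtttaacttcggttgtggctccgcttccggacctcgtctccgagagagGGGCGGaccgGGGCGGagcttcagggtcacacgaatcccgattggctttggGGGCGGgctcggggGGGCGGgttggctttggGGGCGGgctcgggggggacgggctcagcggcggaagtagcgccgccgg
Pgap3, chr11:98400441-98400740, minus strand: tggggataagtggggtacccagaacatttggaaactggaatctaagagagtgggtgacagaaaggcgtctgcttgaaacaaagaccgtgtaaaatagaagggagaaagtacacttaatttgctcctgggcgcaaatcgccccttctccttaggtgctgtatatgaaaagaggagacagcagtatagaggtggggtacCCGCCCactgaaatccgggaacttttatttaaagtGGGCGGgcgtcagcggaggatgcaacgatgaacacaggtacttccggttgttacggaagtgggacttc
Erbb2, chr11:98412234-98412533, plus strand: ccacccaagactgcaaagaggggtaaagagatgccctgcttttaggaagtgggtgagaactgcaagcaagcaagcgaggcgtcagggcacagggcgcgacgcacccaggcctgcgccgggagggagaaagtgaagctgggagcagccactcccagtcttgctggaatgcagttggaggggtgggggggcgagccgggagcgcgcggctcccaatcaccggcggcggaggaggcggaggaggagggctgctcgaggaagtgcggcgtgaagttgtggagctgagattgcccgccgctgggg
The GC box occurred 5 times in the Stard3 window, 2 times in that of Pgap3 and 0 times in that of Erbb2. Among the other listed genes with a promoter, it occurred 0 times in Mien1. It occurred 1 time each in Fbxl20 and Med1 and 2 times each in Cdk12 and Neurod2. It was present in 35.9% of 27025 mouse promoters of the same length. The CCAAT box (CCAAT, either strand) was found 1 time in Stard3, 0 times in Pgap3 and 1 time in Erbb2, and in 37.9% of all promoters. These are matches of letters, not sites shown to be used.

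Erbb2 (transcript cluster 17255999) differed from this picture. It was 9.63, 11, 11.60, 11.47 and 11.85 in the WT tumors, 12.92, 12.78, 12.52, 12.39 and 12.89 in the HET tumors, and 10.52, 12.36, 10.56, 12.83 and 11.39 in the HOM tumors. In the 6 tumors highest for Pgap3 it lay between 10.52 and 11.60. All 5 HET tumors, HOM 2 and HOM 4, with Pgap3 between 7.07 and 9.08, had Erbb2 between 12.36 and 12.92. WT 1 was low for both, with the lowest Erbb2 value of all tumors, and 0 of the 10 listed genes were high in it.

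**Figure D2:**
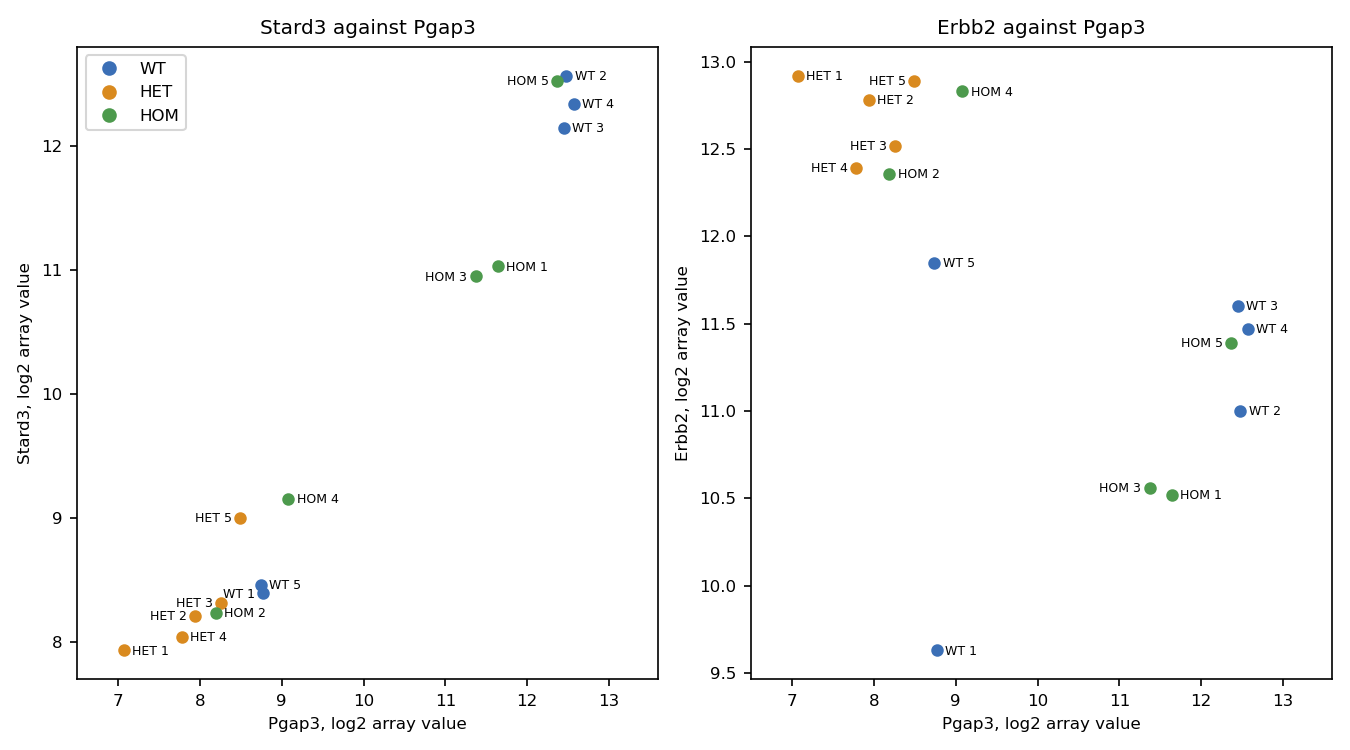
Log2 array values of Stard3 (left) and Erbb2 (right) against Pgap3, 1 point per tumor, coloured by genotype. Stard3 is at 10.95 or above in the 6 tumors with Pgap3 at 11.37 or above; in those tumors Erbb2 does not exceed 11.60, while it reaches 12.92 in tumors with low Pgap3.

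Mien1 and Grb7 lie next to Erbb2 on its telomeric side, and their gene models overlap each other. MIEN1 is a small membrane-anchored protein linked to cell migration. Mien1 (transcript cluster 17268810) was 11.86, 13.23, 13.15, 13.07 and 11.48 in the WT tumors and 11.73, 12.03, 11.67, 11.20 and 12.61 in the HET tumors. It was 12.74, 11.96, 11.51, 12.10 and 13.24 in the HOM tumors. It was high in 6 tumors, and 5 of them were among the 6 highest for Pgap3. HOM 3 was the exception on one side, with Mien1 at 11.51 and Pgap3 at 11.37, and HET 5 on the other, with Mien1 at 12.61 and Pgap3 at 8.49.

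GRB7 is an adaptor that binds phosphorylated receptor tails through its SH2 domain, including that of ERBB2. Grb7 (transcript cluster 17256033) was 9.67, 12.71, 12.65, 12.82 and 10.90 in the WT tumors and 7.77, 12.03, 9.86, 11.59 and 12.68 in the HET tumors. It was 12.39, 11.52, 10.41, 12.05 and 8.44 in the HOM tumors. Grb7 was thus high in 11 of 15 tumors, more than any other listed gene, and in each genotype. This count depends on a reference of 9.23, which the low values of HET 1 (7.77) and HOM 5 (8.44) pull down. HOM 3 was counted at 1.18 above it, although its value is itself among the 5 lowest. In HET 2, HET 4 and HOM 2 Grb7 was the only listed gene that was high, and the same held for WT 5.

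HOM 5 was high for 8 of the 10 genes, from Fbxl20 to Mien1 without a gap among the listed genes. Erbb2, skipped in this run, was not high there, at 0.77 above its reference. The Grb7 value of HOM 5, 8.44, was the second lowest of that gene. The lowest, 7.77, was in HET 1, where the epithelial marker mean was 8.33 and Erbb3, another receptor of the family, was 7.19 against 8.70 to 11.32 in the other tumors. In HOM 5 the epithelial mean was 10.70, inside the range of the other tumors.

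The genes most like Grb7 by the same distance were Macc1 (1.03), Fermt1 (1.04), Slc4a11 (1.06), Krt7 (1.10) and Plxnb1 (1.11), on chromosomes 12, 2, 2, 15 and 9. None of these 5 lies on chromosome 11, and the median gene was at 1.64. Krt7 is also among the epithelial markers. Macc1 was 4.80 and Fermt1 4.70 in HET 1, the lowest value of each. The part of epithelial content in the Grb7 values was not tested. The relatives Grb10 (6.17 to 9.95) and Grb14 (5.60 to 7.74) encode adaptors of the same family. Grb10 was highest in HET 4 and in HOM 5, a tumor with low Grb7.

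Fbxl20, Med1 and Cdk12 form the centromeric end of the list. FBXL20 is the substrate-binding part of a ubiquitin ligase, MED1 is the Mediator subunit through which nuclear receptors contact the transcription machinery, and CDK12 is a kinase of the RNA polymerase II tail. Fbxl20 (transcript cluster 17268729) was 11.99 in WT 3 and 12.06 in HOM 5, and 8.10 to 9.25 in the other 13 tumors. Med1 was 13.29 and 13.33 in those 2 tumors and 9.76 to 10.67 in the others. Cdk12 was 11.90 and 12 in them and 8.28 to 8.96 in the others. The 3 genes stood high in the same 2 tumors only, by 3.35 to 3.64, and these tumors were also high for Stard3, Pgap3 and Mien1.

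Cdk12 was nearest to Med1 (0.19) and Fbxl20 (0.28) among 14242 genes, a comparison added after the values were seen. The third gene, Gm26504 on chromosome 7, was at 0.62 and the median gene at 1.27. The stretch holds Mir5119, a microRNA gene inside the Cdk12 gene model, which is no listed neighbour. Its cluster had a value of 7.43 in WT 3 and 8.84 in HOM 5 and 2.34 to 3.24 in the other tumors. It did not pass the filter on low values and the array does not separate the microRNA from its host transcript. Its sequences are shown because it was high in exactly the 2 tumors that were high for Cdk12, with the seed (bases 2 to 8 of the mature form) in capitals, from RefSeq, GRCm38.p6.
mmu-miR-5119, chr11:98262638-98262656, plus strand: cAUCUCAUccuggggcugg
Mir5119 hairpin, chr11:98262606-98262662, plus strand: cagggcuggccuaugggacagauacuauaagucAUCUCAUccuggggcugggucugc

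Between Cdk12 and Pgap3, some genes stayed low while those on both sides were high. Neurod2 encodes a neuronal transcription factor. It was 5.60 in WT 3, within the range of 5.28 to 5.82 of 14 tumors, and 7.09 in HOM 5. The values of the 14 tumors lie near the array medians (5.54 to 5.73) and are hard to tell from background, while 7.09 lies above them. Markers of neurons averaged 5.67 to 6.99 over the tumors and 6.44 in HOM 5. The unlisted genes 1700003D09Rik (8.67) and Pnmt (7.12), the latter encoding the enzyme that makes adrenaline, were also highest in HOM 5. Pnmt also passed the threshold in WT 2 (5.84) and WT 4 (5.47), which were high for Stard3 and Pgap3 on either side of it. Both of these values lie near the array medians and are hard to tell from background. Pnmt was 4.43 in WT 3 and did not pass the filter on low values.

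Tcap encodes telethonin, a protein of the muscle Z-disc. It was 7.54 in HOM 5, 7.35 in HET 3 and 5.86 to 6.87 in the other tumors. In HET 3 the mean of 10 skeletal muscle markers was 11.11, with Acta1 at 12.95 and Ckm at 11.24, against marker means of 5.29 to 6.17 in the other 14 tumors. In HOM 5 that mean was 5.54, so the muscle markers were high in HET 3 and not in HOM 5. The part of muscle tissue in the HET 3 value was not tested.

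Ikzf3 closes the list on the telomeric side and encodes Aiolos, a lymphocyte transcription factor. It was 8.40 in HET 1, 6.75 in WT 3 and 4.85 to 6.04 in the other tumors. The values of those other tumors lie near or below the array medians (5.54 to 5.73) and are hard to tell from background. The mean of the B and plasma cell markers was 9.90 in HET 1 and 7.07 in WT 3, the highest 2 values, and 5.28 to 6.34 elsewhere. All 7 markers were highest in HET 1. Cd79a, a B cell receptor subunit, was 10.10 there and 6.45 in WT 3. Pou2af1 was 10.11 in HET 1, 7.82 in WT 3 and 7.84 in WT 5, where Ikzf3 was 5.24. Pax5, a B cell transcription factor, was 5.57 in WT 3 and 5.39 to 6.02 in the others apart from HET 1. The mean of 8 T and NK cell markers was 7.98 in HET 1 and 7.59 in WT 3, with HOM 4 next at 7.49. Ikzf3 was 5.14 in HOM 5, where the lymphocyte means were 5.63 and 5.99. The part of lymphocytes in the Ikzf3 values was not tested.

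**Figure D3:**
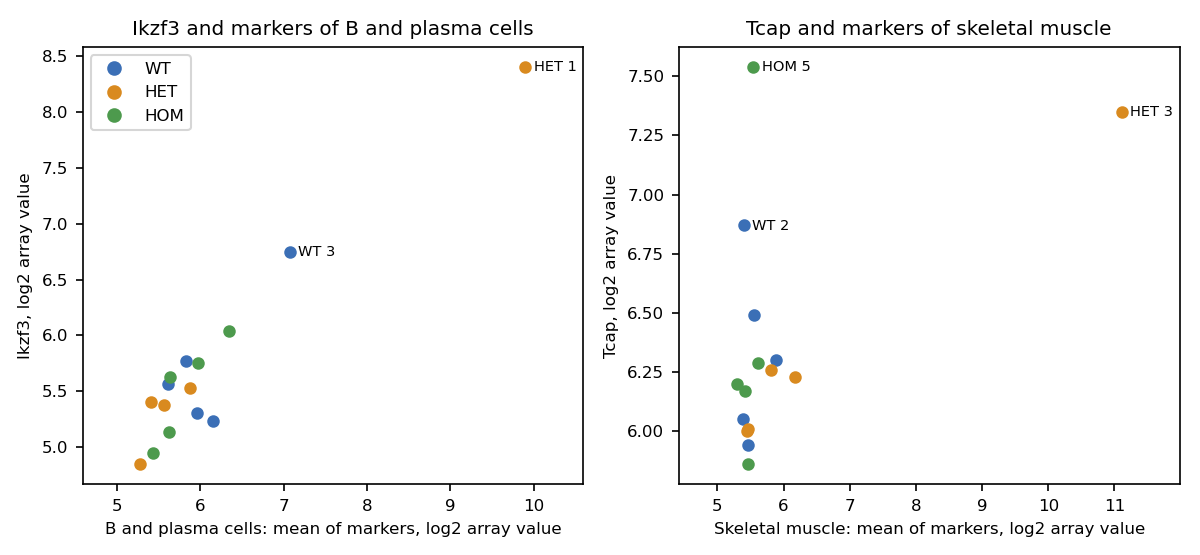
Log2 array values of Ikzf3 against the mean of B and plasma cell markers (left) and of Tcap against the mean of skeletal muscle markers (right), 1 point per tumor, coloured by genotype. HET 1 is highest in both measures on the left; on the right HET 3 is high in both (7.35 and 11.11), and HOM 5 is high for Tcap (7.54) with a marker mean of 5.54.

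The chromosome on each side of the list was read from 25 named genes per side. On the centromeric side, the 3 nearest genes are Stac2, Rpl19 and Cacnb1. Rpl19, a ribosomal protein gene, was 12.75 to 13.29 and high in 0 tumors. Cacnb1, a calcium channel subunit gene, was high in WT 4 and HET 3 only (7.96 and 8.03). Stac2, directly beside Fbxl20, was high in 11 tumors. It was 10.45 in WT 3 and 9.71 in HOM 5, but 11.03 in WT 4, 10.61 in WT 2 and 10.08 in HOM 1, where Fbxl20 was 8.67 to 9.08. Its 6 highest tumors were the 6 highest for Pgap3 and Stard3, with HOM 3 at 9.69, although HOM 4 (9.53), WT 5 and HET 1 (both 9.41) came close to the lowest of them.

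On the telomeric side, Zpbp2, Ormdl3 and Lrrc3c follow Ikzf3. Lrrc3c was high in 0 tumors. Ormdl3, a regulator of sphingolipid synthesis, was high in WT 1, WT 3, HET 5 and HOM 1 (8.29, 8.80, 8.83 and 8.59). Zpbp2 was high in 6 tumors, at 7.30 in HOM 2, 6.87 in WT 4 and 6.86 in HET 5. In HOM 1 (6.04), WT 1 (5.98) and WT 3 (5.81) it lay near the array medians (5.54 to 5.73). Those lower values are hard to tell from background. Further out, genes chosen after their values were seen stood high in other tumors. Psmd3, a proteasome subunit gene, was 13 in WT 4, 12.32 in HET 5, 12.11 in HOM 1 and 11.27 in WT 5, and 9.53 to 10.38 in the rest. Med24, a Mediator subunit gene, was 12.10 in HET 5, 11.88 in HOM 1, 10.76 in WT 5 and 9.55 in WT 4. Msl1 and Wipf2 were high in WT 5 (11.08 and 9.86) and HOM 1 (11.95 and 11) only. In HOM 1, high values thus occurred on both sides of Erbb2, whose own value there was 10.52, the second lowest of all tumors. In WT 2 and HOM 5, Psmd3 and Med24 were not high.

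**Figure D4:**
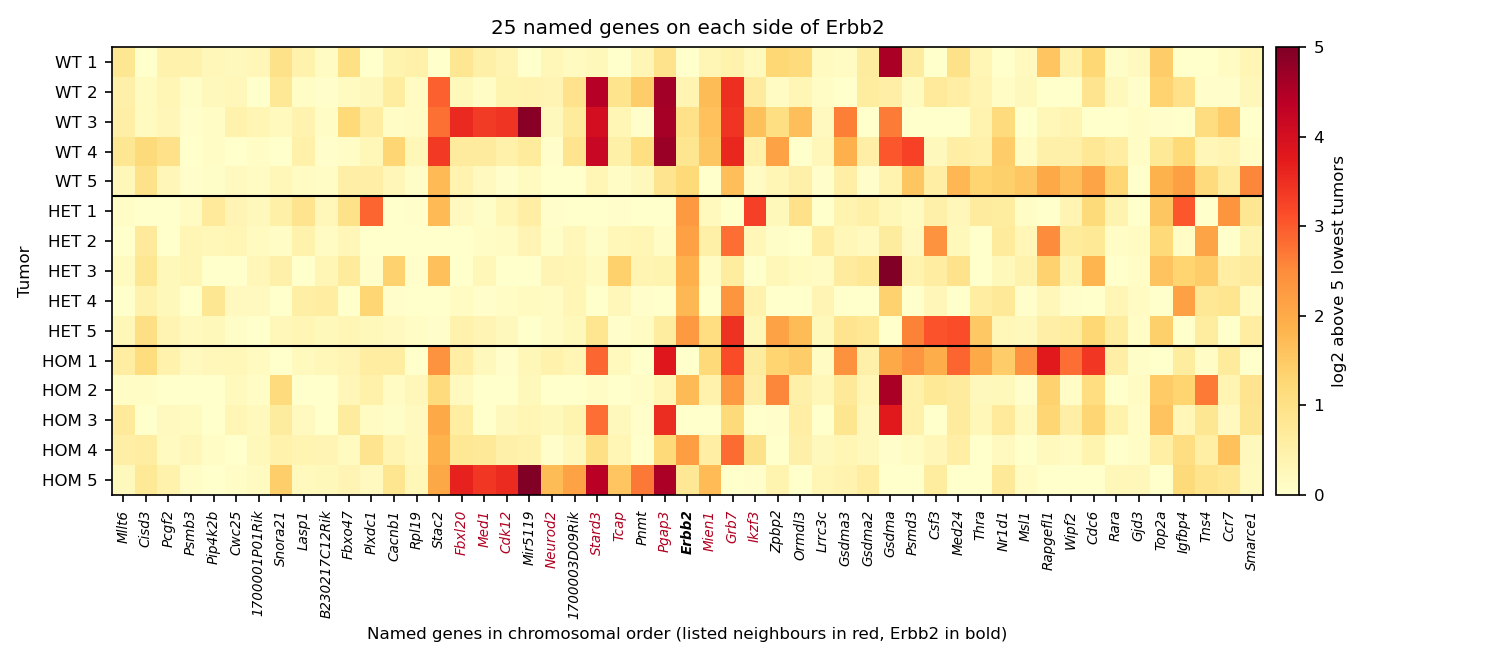
Log2 value minus the mean of the 5 lowest tumors of each gene, for 25 named genes on each side of Erbb2 (columns, chromosomal order) in each tumor (rows). WT 3 and HOM 5 are high for Fbxl20, Med1 and Cdk12. Stac2 beside them is high in 11 tumors, among them WT 2, WT 4 and HOM 1, and Rpl19 before Stac2 is not high in any tumor. Psmd3 is high in WT 4, WT 5, HET 5 and HOM 1.

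The rest of chromosome 11 was read only as a median per tumor, which cannot show short stretches of high genes. Over 1139 tested genes of the chromosome outside these windows, the median difference from each gene's own median lay between -0.12 and 0.06 in 14 tumors. In WT 1 it was 0.28, and 0.00 over 12985 genes of the other chromosomes in that tumor. WT 1 was the tumor in which 0 of the 10 listed genes were high.

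The comparison of HET with WT asked whether the neighbours differed in tumors with 1 floxed Ctnnb1 allele. The neighbours were chosen with large differences in these tumors already known. Their intervals, unadjusted p counts and overlaps in all 3 comparisons are therefore descriptions only. Stard3 and Pgap3 had lower means in HET. Pgap3 was 7.91 ± 0.54 (SD, n = 5) in HET and 11 ± 2.05 in WT, a log2 difference of -3.09 (95% interval -5.10 to -1.09, an 8.53-fold lower mean). All 5 HET tumors lay below all 5 WT tumors, and WT 1 and WT 5 lay closest. Stard3 was 8.30 ± 0.42 and 10.78 ± 2.16, a difference of -2.48 (-4.48 to -0.48), and its groups overlapped. Neither passed the limma test with Benjamini-Hochberg adjustment over all genes (adjusted p = 0.231 and 0.292). Erbb2 had the opposite sign, with a mean 3.01-fold higher in HET (adjusted p = 0.224).

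Of the 10 genes, 8 had a lower and 2 a higher mean in HET, where 7762 of all 14243 tested genes had a lower mean. Their median difference was -0.79 against -0.03 over all tested genes. Neighbours were high in the same tumors, so these are no counts of separate genes. By the limma test 0 of 10 passed, where 0.0140% of all genes did. At an unadjusted p under 0.05 there were 2 of 10, Pgap3 and Stard3, against 13.4% of all genes. Groups without overlap occurred for 1 of 10 genes, Pgap3, against 1.58% of all genes. Fbxl20, Med1 and Cdk12 differed by -1.10, -0.79 and -0.79, with WT SDs of 1.37, 1.35 and 1.40 set by WT 3. Without WT 3 the differences were -0.49, -0.20 and -0.17. Mien1 differed by -0.71 and Grb7 by -0.97 (adjusted p = 0.445 and 0.679), and without HET 1 and HET 3 Grb7 differed by 0.35. Tcap, Ikzf3 and Neurod2 differed by 0.04, 0.18 and -0.01, and without HET 1 Ikzf3 differed by -0.44. Without the tumors labelled WT 5 and HOM 5, Pgap3 differed by -3.66 and Stard3 by -3.06 (adjusted p = 0.169 and 0.200).

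HOM and WT tumors overlapped in their values of every listed gene, where only 0.281% of all tested genes had groups without overlap. Both genotypes held high and low tumors for the genes nearest Erbb2. Pgap3 was 10.53 ± 1.80 in HOM, a difference of -0.47 from WT (-2.48 to 1.54), and Stard3 10.38 ± 1.70, a difference of -0.41 (-2.41 to 1.60). Without the tumors labelled WT 5 and HOM 5 these were -1.50 and -1.52. Grb7 differed by -0.79 (-2.89 to 1.31), and without HOM 5 by -0.16. Of the 10 genes, 0 passed the limma test, as for all genes (0%), and 0 had an unadjusted p under 0.05 (1.70% of all genes). With n = 5 per genotype, every adjusted p rounded to 1, and the intervals allow differences of over 2-fold in either direction for 6 genes.

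Between HOM and HET the same 2 genes had the widest differences, Pgap3 at 2.62 (0.61 to 4.63) and Stard3 at 2.08 (0.08 to 4.08), with means 6.15-fold and 4.22-fold higher in HOM. Neither passed the limma test (adjusted p = 0.587 and 0.618). Of the 10 genes 9 had a higher mean in HOM, as did 7470 of all 14243 tested genes. Neighbours were high in the same tumors, so this is no count of separate genes. By the limma test 0 passed (0% of all genes), and 2 had an unadjusted p under 0.05 (7.93% of all genes). Fbxl20, Med1 and Cdk12 differed by 1.11, 0.65 and 0.66, and by 0.49, 0.01 and -0.02 without HOM 5. This comparison shares the HET tumors with that of HET with WT.

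**Figure D5:**
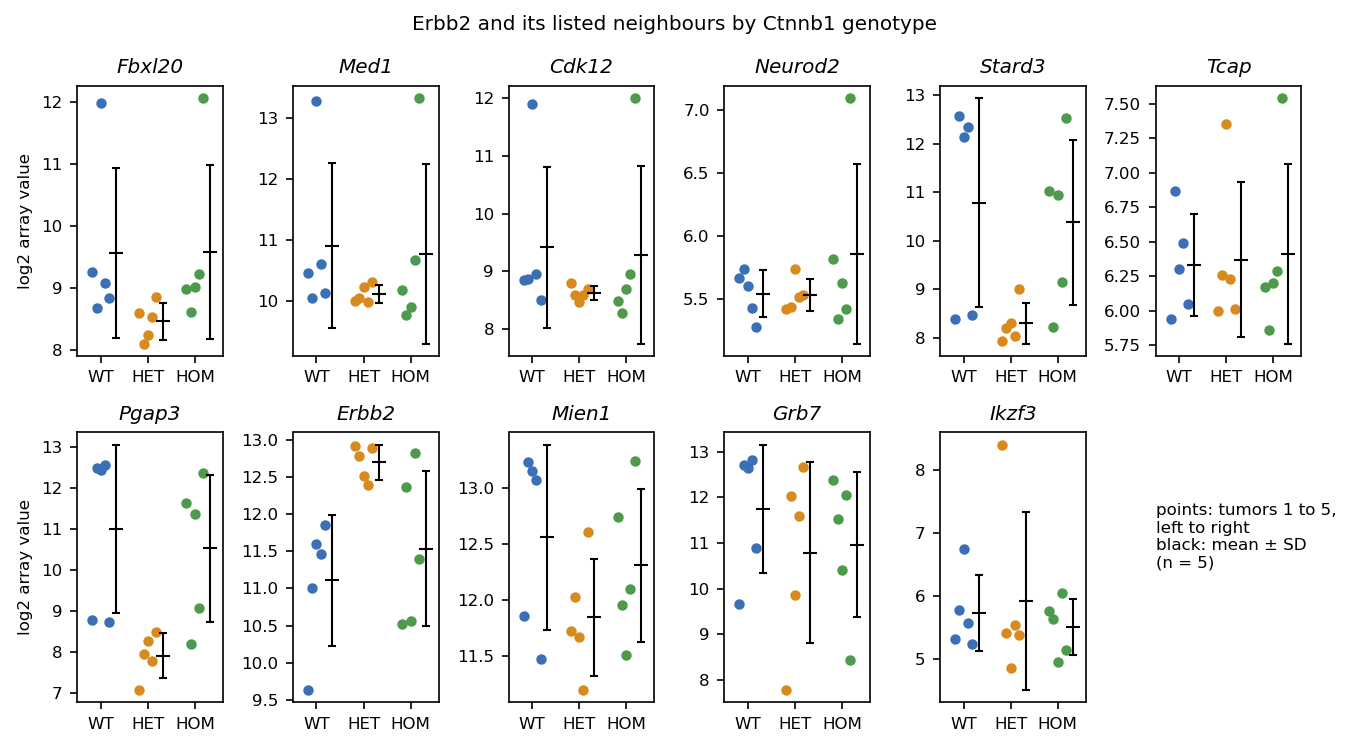
Log2 array values of Erbb2 and its 10 listed neighbours by Ctnnb1 genotype; points are tumors 1 to 5 from left to right and black bars the mean ± SD (n = 5). Vertical axes do not start at 0 and differ between genes. For Stard3 and Pgap3 the WT and HOM tumors split into high and low values, while the HET tumors stay at 9.0 or below.

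The other genes of the ErbB pathway were read from a list of 40 receptors, ligands and signalling genes, 30 of which were tested. None passed the limma test in any of the 3 comparisons. At an unadjusted p under 0.05 there were 4 of 30 in HET against WT (13.4% of all genes), 0 in HOM against WT (1.70%) and 3 in HOM against HET (7.93%). The first of these counts is at the share of all genes. Its 4 genes, named after their values were seen, were the ligands Ereg (difference 2.32) and Nrg4 (0.29), the small GTPase Nras (0.30) and the kinase subunit Pik3r1 (-0.53), with adjusted p from 0.224 to 0.320. The list's median difference was 0.06 between HET and WT, that of the 10 neighbours -0.79.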

How the data were processed

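Total RNA of 15 mouse mammary tumors (5 per Ctnnb1 genotype) was profiled, 100 ng per tumor, per the labels' protocols. The authors deposited log2 values for 41345 transcript clusters. Transcriptome Analysis Console and Affymetrix Expression Console were used, per the submitters' processing notes. Version, background correction and normalization: not given in the sources used here. No detection calls were used. The log2 scale was inferred from the range of the deposited values (1.06 to 13.9). Clusters were named through the platform annotation and RefSeq (GRCm38.p6, for names and gene order), keeping the brightest of the 23521 clusters with 1 symbol per gene (22180 genes). Tested genes lay above the array median on at least 5 arrays (14243).

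Differences between genotypes came from 1 limma fit of all 15 tumors (limma 3.58.1, R 4.3.3), two-sided, with Benjamini-Hochberg adjustment at 0.05. The script was tested on simulated data. Replicates are numbered by accession, so numbers shared across genotypes pair no tumors. No 2 tumors had identical values.

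The 10 genes, the marker and pathway lists and the threshold for a high value were chosen with earlier results of these data known. Genes named are the 10, Erbb2, the 3 nearest on each side, unlisted genes between them, the 5 most like Pgap3 and Grb7, 2 relatives of Grb7, Ctnnb1, and 2 markers of lists high in the same tumor. Erbb3 and the other genes named outside this rule were chosen after their values were seen. Alternatives were other filters, normalizations, cluster rules, fits and thresholds, and leaving out tumors.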

Additional observations from a re-analysis of the deposited data

Results flagged for a closer look

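In 33 groups of 5 tumors (11 genes, Erbb2 included, in 3 genotypes), 10 values had a gap to the other 4 beyond Dixon's 95% critical value. Chance marks about 1 in 20 groups of genes not chosen by their values, but these genes were chosen with their differences known and neighbours share tumors, so the count is a description and no test. WT 3 stood apart for Fbxl20 (11.99), Med1 (13.29) and Cdk12 (11.90). HOM 5 stood apart for Fbxl20 (12.06), Med1 (13.33), Cdk12 (12), Neurod2 (7.09) and Tcap (7.54). HET 3 stood apart for Tcap (7.35), with a skeletal muscle marker mean of 11.11. HET 1 stood apart for Ikzf3 (8.40), with a B and plasma cell marker mean of 9.90. Stard3, Pgap3, Mien1 and Grb7 had no value that stood apart in this way.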

How the results depend on the processing

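None of the 10 genes passed the limma test under any alternative run, and the lowest adjusted p was 0.129. Of 530 alternative values of the 30 differences, 481 kept their direction and 49 turned it, with 14 differences holding their direction throughout. Pgap3 and Stard3 in HET against WT were among these (-3.66 to -2.70 and -3.08 to -2.04 with 1 tumor left out). Over all genes, HET against WT gave 1 call after quantile normalization, 1 with those 2 genotypes fitted alone, 1 to 48 with 1 tumor left out (48 without HET 3, 18 without HET 5) and 10 without HET 1 and HET 3. Without WT 5 and HOM 5, HOM against WT gave 4 calls and HOM against HET 6. HOM against HET gave 1 call without HET 1 and HET 3, and 0 to 3 with 1 tumor left out. At the threshold of 1, 5 tumors held a run of at least 3 neighbouring high listed genes, Erbb2 and unlisted genes skipped. At a threshold of 2, this fell to 2 tumors, and 28 values were high. At 0.5, 7 tumors held such a run and 63 values were high. Against each gene's median tumor there were 4 such tumors and 31 high values. The sets without WT 5 and HOM 5 and without HET 1 and HET 3 were added after seeing the data.

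Without WT 5 and HOM 5, these differences turned: Tcap in HET against WT (-0.03), Fbxl20 (-0.79), Neurod2 (-0.06) and Tcap (-0.27) in HOM against WT, and Cdk12 (-0.02) and Tcap (-0.24) in HOM against HET. Without HET 1 and HET 3, Tcap (-0.17), Grb7 (0.35) and Ikzf3 (-0.29) turned in HET against WT, and Grb7 (-1.14) and Ikzf3 (0.07) in HOM against HET. With arrays centred on their medians, Fbxl20 turned in HOM against WT (-0.03). With 1 tumor left out, HET against WT ranged from -0.08 to 0.03 for Neurod2, -0.21 to 0.17 for Tcap and -0.44 to 0.45 for Ikzf3. HOM against WT ranged from -0.61 to 0.62 for Fbxl20, -0.78 to 0.46 for Med1, -0.81 to 0.49 for Cdk12, -1.0 to 0.13 for Stard3, -0.20 to 0.22 for Tcap, -1.04 to 0.11 for Pgap3 and -0.36 to 0.03 for Ikzf3. HOM against HET ranged from -0.02 to 0.91 for Cdk12, -0.24 to 0.29 for Tcap, -0.58 to 0.81 for Grb7 and -0.68 to 0.21 for Ikzf3. Beyond the tumors left out, the cause was not tested. No paired analysis was possible because the labels give no replicate numbers. Depth does not apply to arrays, and 5 tumors per genotype limit the precision.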
